A study of Homo sapiens with 6 samples.

Results

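HERVK HML-2 is the youngest group of endogenous retroviruses in the human genome, and its copies were examined here as the repeat loci named HERVK-int, LTR5, LTR5_Hs, LTR5A and LTR5B. Members were chosen by repeat name alone. They numbered 347 of the 433837 loci in the deposited tables: 154 LTR5_Hs, 93 LTR5B, 49 LTR5A, 47 HERVK-int and 4 LTR5. Each listed locus has at least 1 read in the 6 libraries, and the tables identify a locus by its repeat name, copy and running number, with no coordinates. All libraries came from HEK293T, an embryonic kidney cell line. A chimeric antisense oligonucleotide (ASO) against U7 small nuclear RNA was given at 100 nM in 3 libraries, whose genotype is labelled as a U7 knockdown. The other 3, labelled wild type, received a control ASO directed at GFP. Libraries of a group are described as biological replicates. RNA was total RNA after removal of ribosomal RNA, and the time between transfection and harvest is not given in the sources used here.

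An intact HML-2 provirus carries gag, pro, pol and env genes between a long terminal repeat at each end. The terminal repeats hold the retroviral promoter, enhancer and polyadenylation signal, and recombination between them has left most insertions as solitary terminal repeats. LTR5_Hs is the terminal repeat of the youngest proviruses, LTR5A and LTR5B belong to older ones, and HERVK-int is the name for the internal, coding part. LTR5_Hs elements are known for promoter and enhancer activity in early embryos and in pluripotent and teratocarcinoma cells. U7 RNA guides the particle that cuts the precursors of replication-dependent histone mRNAs.

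The libraries held between 1926892 and 2819540 reads in repeat loci, which is not the sequencing depth, and all 3 U7 ASO libraries held more than any control. In each library 1 locus of another repeat held 19.3% to 21.7% of the reads. The 16 loci named U7 held 4 to 12 reads in a library, too few to check the knockdown, and the tables hold no gene or cell type markers. As these are bulk samples, fewer cells of a type and less RNA per cell cannot be told apart.

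HML-2 reads were a small part of every library and were more abundant under the U7 ASO. The members held 781, 779 and 1102 reads in control replicates 1 to 3 and 1249, 1512 and 1870 reads in U7 ASO replicates 1 to 3. Scaled to a common library size by TMM and written as CPM, this was 418, 418 and 532 in the controls and 587, 622 and 665 under the U7 ASO. The lowest U7 ASO library exceeded the highest control, as it did for 9.93% of all tested names. The ratio of the group means, 625 ± 39.1 to 456 ± 65.5 CPM (SD, n = 3 each), was 1.37. LTR5_Hs was called raised and the other 4 names did not pass the test, which alone does not show that the names differ. A direct permutation test between names, given below, could not reach a p under 0.05 with 3 libraries against 3. Over all 2236 repeat names tested, 1.52% were raised and 1.03% lowered at a Benjamini-Hochberg adjusted p under 0.05 (edgeR quasi-likelihood test, adjusted over all names).

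**Figure D1:**
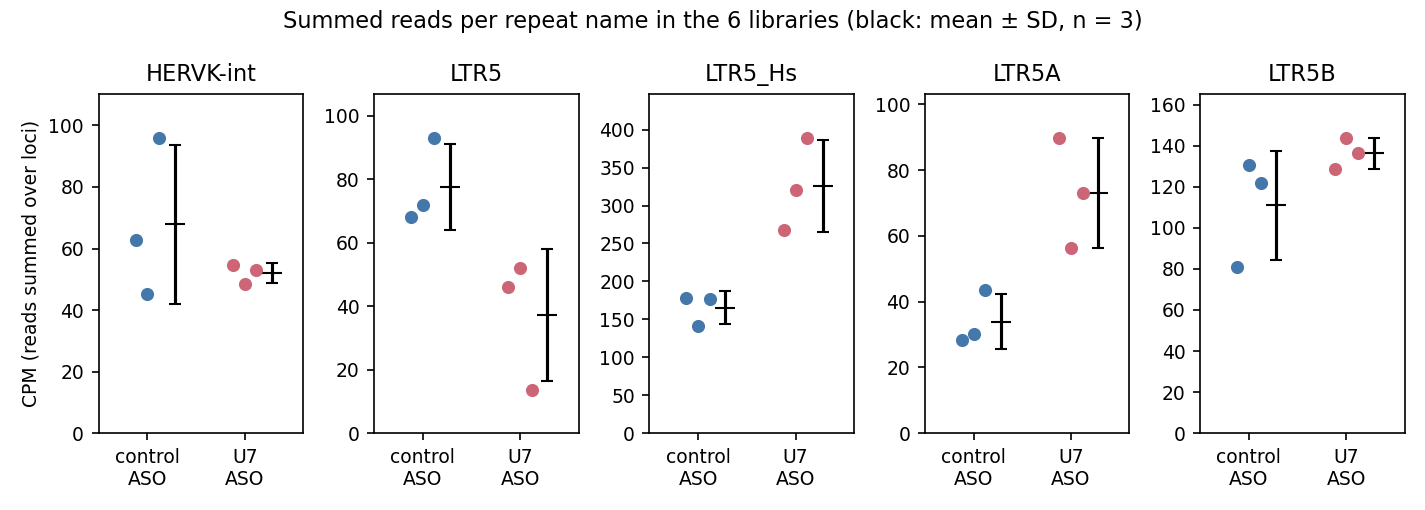
CPM of reads summed over the loci of each HML-2 repeat name, 1 point per library (blue, control ASO; red, U7 ASO), with black bars for the mean ± SD (n = 3); each panel has its own axis from 0. LTR5_Hs and LTR5A lie higher in all 3 U7 ASO libraries, LTR5 lies lower in all 3, and HERVK-int and LTR5B overlap.

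Among the terminal repeats, LTR5_Hs held the most reads, and it was the only member name called raised. It held 333, 262 and 367 reads in the controls and 570, 780 and 1094 under the U7 ASO. In CPM these were 178, 141 and 177 against 268, 321 and 389, so the lowest U7 ASO library stood above the highest control. Such upward separation was seen for 9.93% of all tested names. The fitted log2 fold change was 0.98 (SE 0.22, 95% interval 0.53 to 1.43, edgeR adjusted p = 0.0124). The call was lost without control replicate 2 (adjusted p = 0.144), U7 ASO replicate 2 (0.0678) or U7 ASO replicate 3 (0.167).

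LTR5A, the terminal repeat of older HML-2 proviruses, had a fitted change of similar size that did not pass. Its CPM values were 28.4, 30.1 and 43.4 in the controls and 89.8, 56.3 and 72.9 under the U7 ASO. The groups did not overlap, which held in the upward direction for 9.93% of all tested names. The log2 fold change was 1.10 (SE 0.32, 95% interval 0.42 to 1.78, edgeR adjusted p = 0.0895). It rested on 199 control and 533 U7 ASO reads, fewer than for LTR5_Hs. It passed with DESeq2 (adjusted p = 0.0341), with a filter of 10 reads in sum (0.0481) and without control replicate 3 (0.0494).

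LTR5B, another older terminal repeat, held 80.8, 130 and 122 CPM in the controls and 129, 144 and 137 CPM under the U7 ASO. Control replicate 2 lay inside the range of the U7 ASO libraries. The log2 fold change was 0.30 (95% interval −0.22 to 0.81, edgeR adjusted p = 0.650). This interval overlaps that of LTR5_Hs, 0.53 to 1.43.

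LTR5, the name with only 4 listed loci, was lower in all 3 U7 ASO libraries without passing the test. Its values were 68.0, 71.9 and 93.1 CPM in the controls and 46.1, 52.2 and 13.5 CPM under the U7 ASO. The groups were separated in the downward direction, as were 10.2% of all tested names. The log2 fold change was −1.07 (SE 0.39, 95% interval −1.89 to −0.24, edgeR adjusted p = 0.195). The value describes 1 locus more than a name, since LTR5_2386129 held 95.4% of the control reads and 87.8% of the U7 ASO reads of LTR5.

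The internal part HERVK-int, which carries the coding sequence, did not follow LTR5_Hs upward. It held 117, 84 and 199 reads in the controls and 116, 118 and 149 under the U7 ASO. This was 62.6, 45.1 and 96.0 CPM against 54.5, 48.5 and 53.0 CPM, with all 3 U7 ASO values inside the control range. The log2 fold change was −0.39 (SE 0.32, 95% interval −1.05 to 0.28, edgeR adjusted p = 0.648). The interval ends below the lower end of that of LTR5_Hs.

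**Figure D2:**
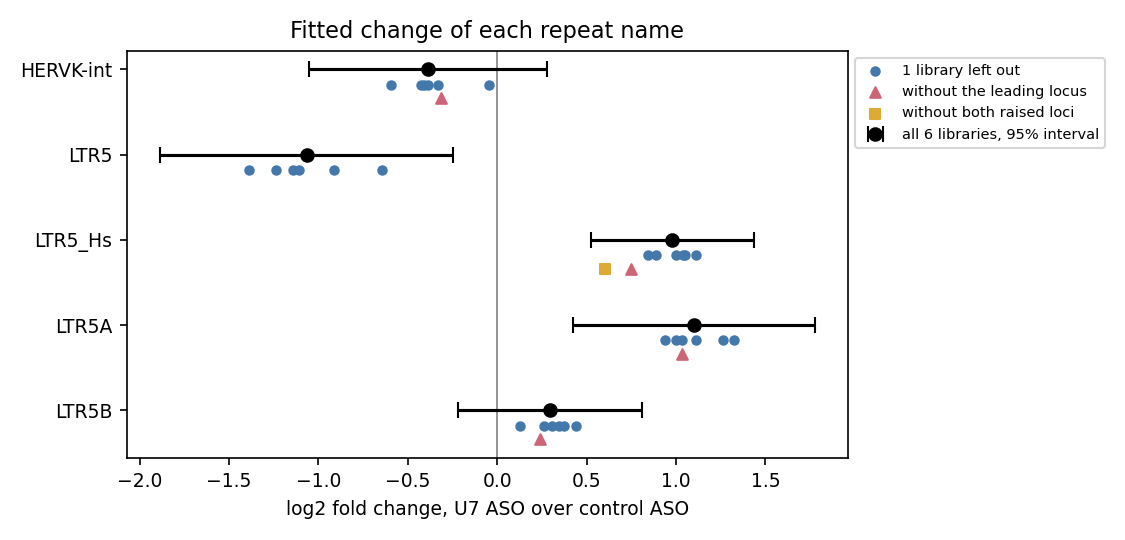
Fitted log2 fold change of each repeat name (U7 ASO over control ASO). Black points with bars are the fit on 6 libraries with its 95% interval, blue points leave out 1 library each, red triangles leave out the locus with the most reads and the yellow square leaves out both raised LTR5_Hs loci. The LTR5_Hs values stay between 0.60 and 1.11, and those of HERVK-int between −0.60 and −0.05.

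The difference between names was tested directly as the log2 ratio of reads within a library, which does not depend on scaling. LTR5_Hs to HERVK-int was 1.51, 1.64 and 0.88 in the controls and 2.30, 2.72 and 2.88 under the U7 ASO, a difference of means of 1.29. LTR5_Hs to LTR5 was 1.10 ± 0.26 and 3.34 ± 1.31 (SD, n = 3 each), a difference of 2.24. For both ratios all U7 ASO libraries lay above all controls, and the exact permutation test (two-sided) gave p = 0.1, the smallest value that 3 libraries against 3 allow. After adjustment over the 4 ratios compared this was 0.2. With the leading locus of both names left out, the difference was 1.00 for HERVK-int (exact permutation p = 0.1) and fell to 0.49 for LTR5 (p = 0.6). The ratio of LTR5_Hs to LTR5B was 0.60 ± 0.52 and 1.24 ± 0.24 (exact permutation p = 0.2, adjusted 0.267). The ratio to LTR5A was 2.30 ± 0.32 and 2.17 ± 0.51 (exact permutation p = 0.8, adjusted 0.8), with overlapping groups.

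At the level of single loci most HML-2 copies held few reads. The median locus had 8 reads over all 6 libraries, 188 of 347 had fewer than 10, and 18 had a read in every library. Between 84.5% and 92.7% of the members' counts above 0 were even numbers, so a count of 2 or 4 may be 1 or 2 read pairs. The count filter kept 24 loci: 12 LTR5_Hs, 4 LTR5A, 4 LTR5B, 3 HERVK-int and 1 LTR5. Of these, 2 were raised and 0 were lowered, beside 4.49% raised and 0.473% lowered among all 14380 tested loci. Loci of other repeats, named LTR12 or HERV9, made up 328 of the 645 raised loci. At an unadjusted p under 0.05 edgeR had 3 higher and 0 lower member loci. DESeq2 also called 2 raised and 0 lowered, and limma-voom 1 raised and 0 lowered. The fitted log2 fold change was above 0 at 14 of the 24 loci and below 0 at 10, with a median of 0.33 beside 0.06 over all tested loci. The filter keeps a locus with no control read only if it is high under the U7 ASO, so these counts hold for the tested loci alone.

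Both raised loci were LTR5_Hs copies with few or no reads assigned in the controls. LTR5_Hs_dup41_254630 held 0, 0 and 4 reads in the controls and 46, 122 and 218 under the U7 ASO. Its log2 fold change was 6.31 (SE 0.88, edgeR adjusted p = 0.000389), and the call was lost with limma-voom (adjusted p = 0.0605). Without control replicate 3 the controls held 0 reads and the fitted value was 9.89. LTR5_Hs_dup38_251220 held 0 reads in all 3 controls and 37, 36 and 132 under the U7 ASO. Against a floor of 3 reads over the control group it was 62.7-fold higher (edgeR adjusted p = 0.000574), and 35.1-fold higher without U7 ASO replicate 3. That floor treats reads as independent, so these folds are too high if the counts are of read pairs. Both loci entered the test only through the U7 ASO libraries, so their calls are conditional on high values there. At both loci U7 ASO replicate 3 was the highest.

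These copies carried nearly as much of the LTR5_Hs rise as the other 152 loci put together. LTR5_Hs_dup41_254630 made up 30.6% of the rise in mean CPM and LTR5_Hs_dup38_251220 made up 16.4%. The remaining 152 LTR5_Hs loci held 178, 141 and 175 CPM in the controls and 229, 256 and 265 CPM under the U7 ASO. Those groups still did not overlap, with means of 165 ± 20.9 and 250 ± 18.6 CPM (SD, n = 3 each). Among all tested names 9.93% were separated upward. Without LTR5_Hs_dup41_254630 the log2 fold change of the name was 0.75 (edgeR adjusted p = 0.0774), and without both loci it was 0.60 (SE 0.21, adjusted p = 0.177). The LTR5_Hs call was thus lost without these copies, whereas the direction was kept. Both copies were picked for their rise in these same libraries. Their share of the rise is therefore favoured, and leaving them out had to lower the fold change.

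**Figure D3:**
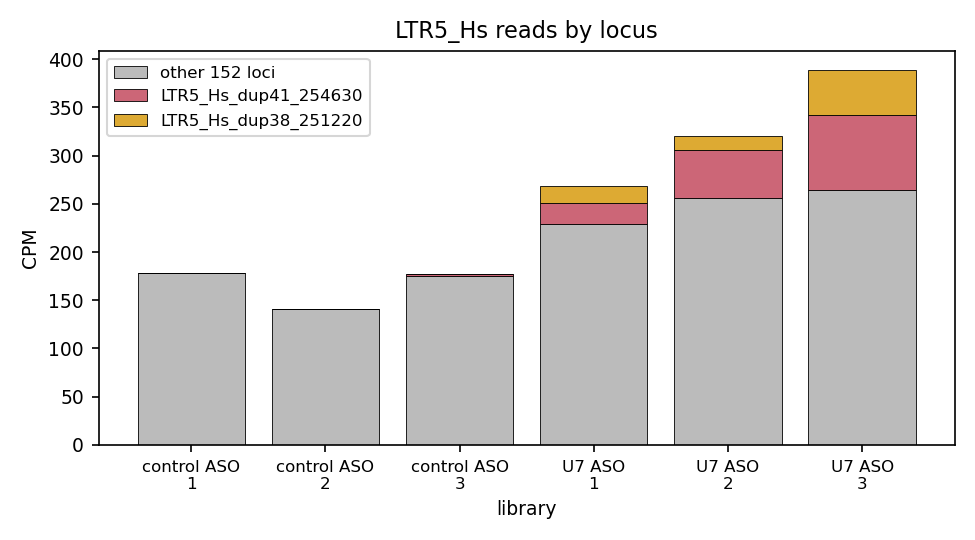
Stacked bars of LTR5_Hs reads in CPM for each library, split into the 2 raised loci (red and yellow) and the other 152 loci (grey). The raised loci add 39.0, 64.9 and 125 CPM in U7 ASO replicates 1 to 3 and at most 1.93 CPM in a control, and the grey part is higher in every U7 ASO library than in any control.

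The surroundings of the 2 raised copies mirrored each other, an observation made after their values were seen. Of the 13 listed loci within 12 running numbers of each, 10 had the same repeat names in reversed order. No other member shared more than 4 names in order with either copy, and the median over the other 346 members was 0. Outward from LTR5_Hs on 1 side, both stretches list AluSz, AluJr, AluSx, AluY, LTR75, MER45B and U1, and on the other side both begin with AluSg. Reads from near-identical stretches can be placed on either, and whether the 2 calls are separate was not tested.

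The neighbouring loci also held more reads under the U7 ASO, but none was called. Around LTR5_Hs_dup41_254630 they held 158 control reads and 516 U7 ASO reads in sum, and 9 of the 13 had no control read. Around LTR5_Hs_dup38_251220 they held 55 and 279 reads, and 7 of the 13 had no control read. Among all listed loci 45.7% had no control read. The sums are not scaled, and every U7 ASO library held more repeat reads than any control. The neighbour with the most reads, LTR75_dup10_254621, a terminal repeat of another retrovirus, held 10, 39 and 28 control reads and 69, 82 and 55 U7 ASO reads (log2 fold change 1.30, edgeR adjusted p = 0.294). The 4 neighbours that were tested had log2 fold changes from 0.38 to 1.75, and 0 of them passed with edgeR, DESeq2 or limma-voom, while 1 had an unadjusted p under 0.05.

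**Figure D4:**
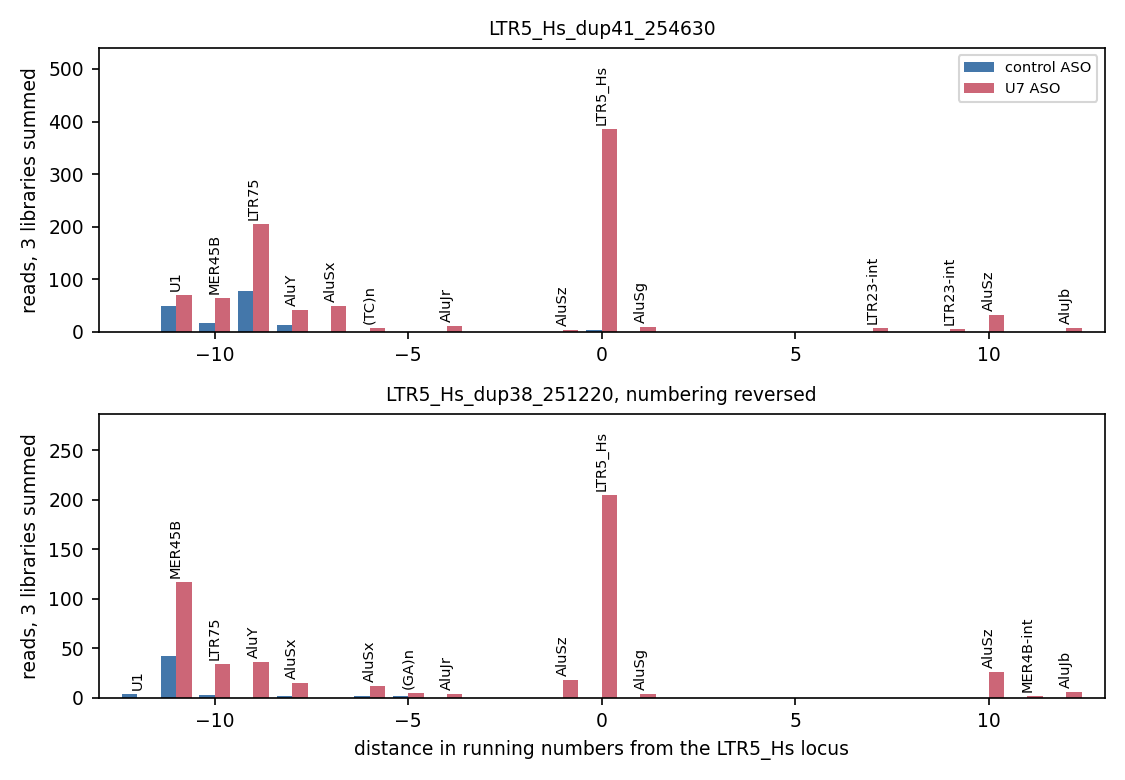
Reads summed over the 3 libraries of each group (blue, control ASO; red, U7 ASO) for every listed locus within 12 running numbers of the raised LTR5_Hs copies, labelled by repeat name; the lower panel is drawn with its numbering reversed. The order of names is nearly the same in both panels, and LTR5_Hs is the tallest U7 ASO bar with 386 and 205 reads.

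The other LTR5_Hs copies with many reads showed no common direction. LTR5_Hs_dup37_250981 held 12, 43 and 10 control reads and 18, 51 and 12 U7 ASO reads (log2 fold change 0.20). LTR5_Hs_dup39_252730 held 46, 18 and 28 control reads against 2, 20 and 24 (−1.15). LTR5_Hs_dup16_3402313 held 0, 10 and 0 control reads against 6, 70 and 22 (3.10, edgeR adjusted p = 0.306), so its libraries overlapped. The value was 1.77 without U7 ASO replicate 2 and 8.02 without control replicate 2. None of these 3 passed. Counted without a test, 103 of the 154 LTR5_Hs loci had a higher mean CPM under the U7 ASO, or 66.9%, beside 58.3% of all listed loci.

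LTR5A copies held few reads each, and none of the 4 tested passed. LTR5A_dup23_3672685, the locus with the most reads, held 16, 1 and 12 control reads and 42, 18 and 38 U7 ASO reads (log2 fold change 1.63, edgeR adjusted p = 0.486). With the scaling of the locus fit its groups did not overlap, as at 12.2% of all tested loci in the upward direction, but with that of the name fit they did. It took 14.6% of the LTR5A reads in the controls and 18.4% under the U7 ASO, and without it the name stood at a log2 fold change of 1.03 (adjusted p = 0.144). LTR5A_dup52_2678722 held 2, 16 and 12 reads against 30, 10 and 4, and LTR5A_dup43_2444728 held 2, 6 and 10 against 18, 30 and 0. Both thus overlapped between the groups. In all, 36 of the 49 LTR5A loci (73.5%) had a higher mean CPM under the U7 ASO, beside 58.3% of all listed loci.

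LTR5B copies with many reads differed in direction. LTR5B_dup76_5042760 held 18, 32 and 32 control reads and 68, 48 and 39 U7 ASO reads (log2 fold change 0.81, edgeR adjusted p = 0.640). LTR5B_1540526 held 16, 28 and 32 against 18, 30 and 46 reads (0.16). LTR5B_dup32_265838 went the other way, with 18, 22 and 24 against 6, 12 and 12 reads (−1.22, adjusted p = 0.663). Of the 93 LTR5B loci 54 (58.1%) had a higher mean CPM under the U7 ASO, a share near that of all listed loci.

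The LTR5 locus LTR5_2386129 was the member with the most reads of all. It held 121, 123 and 189 reads in the controls and 83, 122 and 26 under the U7 ASO, with a log2 fold change of −0.98 (SE 0.48, edgeR adjusted p = 0.447). Its CPM was lower in all 3 U7 ASO libraries with the scaling of either fit, as at 8.36% of all tested loci with that of the locus fit, and U7 ASO replicate 3 was the lowest. LTR5_1897212 held 6, 11 and 2 reads against 6, 3 and 0. LTR5_3713414 held 0 control reads and 9, 2 and 12 U7 ASO reads, too few to be tested, and a raised LTR12 or HERV9 locus lay within 20 running numbers of it.

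The 3 tested HERVK-int copies had fitted values below 0, and none passed. The copy with the most reads, HERVK-int_dup7_1044442, held 20, 14 and 34 control reads and 20, 14 and 14 U7 ASO reads (log2 fold change −0.60, edgeR adjusted p = 0.897). HERVK-int_dup1_4127065 held 10, 30 and 41 control reads, against 0, 18 and 0 (−2.23, adjusted p = 0.566). It was called lowered only without U7 ASO replicate 2 (adjusted p = 0.0493), where both remaining libraries held 0 reads. The third tested copy, HERVK-int_dup9_3954515, held 12, 0 and 10 against 18, 0 and 0 reads (−0.31). HERVK-int_dup5_2394836 held 4, 4 and 10 against 8, 24 and 8 reads and was not tested. Of the 47 HERVK-int loci 27 (57.4%) had a higher mean CPM under the U7 ASO, beside the 58.3% of all loci.

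**Figure D5:**
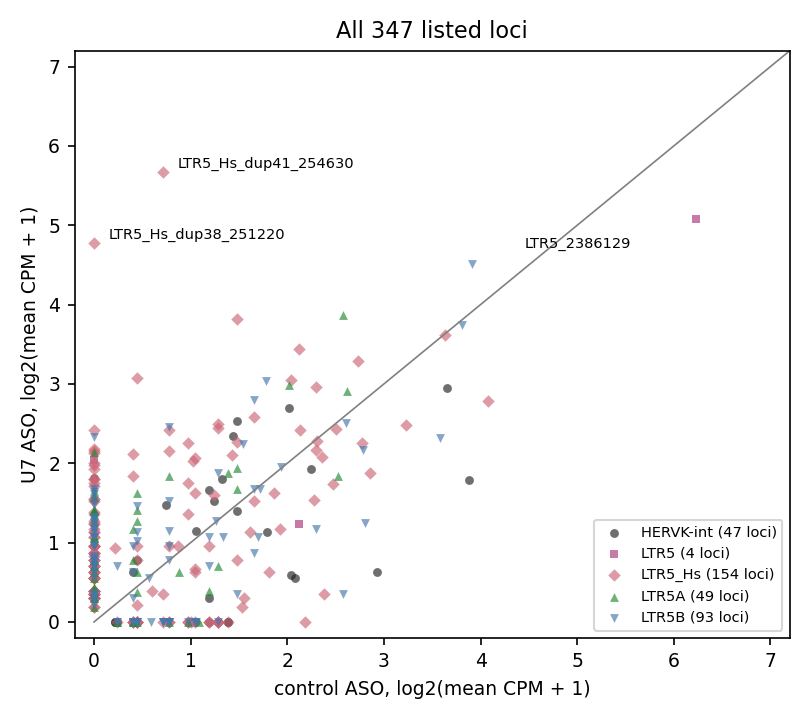
Each point is 1 of the 347 listed HML-2 loci, by its mean CPM in the controls (horizontal) and under the U7 ASO (vertical), both as log2(CPM + 1), with the line of equal values; colours and shapes give the repeat name. The 2 raised LTR5_Hs copies stand at the left edge far above the line, LTR5_2386129 lies below it, and most loci sit near the origin.

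Whether an internal part and its terminal repeats moved together was described from the running numbers. A HERVK-int locus was called joined when a listed LTR5 family locus lay within 5 running numbers, which held for 27 of 47 HERVK-int loci, 10 of them with such a locus on each side. Of the 27, 8 had only LTR5A beside them, 8 only LTR5B, 9 only LTR5_Hs and 2 both LTR5B and LTR5_Hs. Joined terminal repeats held few reads: 9 joined LTR5_Hs loci held 84 control reads and 129 U7 ASO reads, or 14.1 ± 10.1 and 17.0 ± 8.13 CPM (SD, n = 3 each). The 10 joined LTR5A loci held 47 and 112 reads, or 7.74 ± 8.82 and 15.5 ± 3.58 CPM. The 10 joined LTR5B loci held 12 and 42 reads, or 2.07 ± 1.08 and 5.50 ± 2.34 CPM. These small sums were not tested. The 145 LTR5_Hs loci with no listed HERVK-int beside them held 878 and 2315 reads, or 151 ± 15.6 and 309 ± 55.8 CPM. The LTR5_Hs reads, the 2 raised copies included, lay mostly at copies with no counted internal part. These copies were 145 of the 154 listed LTR5_Hs loci, so a large share of the reads there follows from their number. A partner with no read is not listed, so an unjoined copy need not be a solitary one.

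The joined HERVK-int loci held 51.5 ± 18.2 CPM in the controls and 41.9 ± 4.32 CPM under the U7 ASO. One complete order of LTR5_Hs, HERVK-int and LTR5_Hs was that around HERVK-int_dup7_1044442. Its terminal repeats LTR5_Hs_dup18_1044441 and LTR5_Hs_dup19_1044445 held 0, 0, 6 and 0, 4, 0 control reads, and 2, 8, 20 and 14, 0, 18 U7 ASO reads. These few reads did not separate the groups at LTR5_Hs_dup18_1044441 or at LTR5_Hs_dup19_1044445.

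Reads were counted at more HML-2 copies under the U7 ASO. A read was present at 92, 97 and 113 member loci in the controls and at 136, 140 and 164 under the U7 ASO. At an equal number of 779 member reads the expected numbers were 92.0, 97.0 and 109 against 129, 128 and 147 loci, and the groups did not overlap. Over all repeats, at an equal 1926892 reads, 95976, 120658 and 108734 loci were expected in the controls. Under the U7 ASO 117099, 156595 and 149815 were expected. Those groups overlapped through U7 ASO replicate 1 alone, so a higher number of loci with a read was not particular to HML-2. The top 10 loci of a library held 40.8% to 46.0% of the members' reads in controls, against 32.6% to 38.5% under the U7 ASO. Without LTR5_2386129 these ranges were 30.8% to 38.0% and 29.5% to 35.1% and overlapped. The expected locus numbers at equal member reads were not computed without LTR5_2386129, which held a larger share of the members' reads in the controls. Over all repeats the top 10 loci held 44.4% to 50.7% and 42.4% to 45.5%.

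Copies with no control read were about as frequent as among all repeats, and copies with no U7 ASO read made up a smaller share. No control read was seen at 151 of the 347 loci (43.5%), beside 45.7% of all listed loci, and no U7 ASO read at 67 (19.3%), beside 26.8%. A locus with 0 control reads and at least 10 U7 ASO reads was found 43 times (12.4%, beside 7.67% of all listed loci), of which 22 were LTR5_Hs, 11 LTR5B and 8 LTR5A. The reverse was found at 4 of the 347 loci, a smaller share than the 3.26% of all listed loci. After LTR5_Hs_dup38_251220, the loci with no control read and the most U7 ASO reads were LTR5_Hs_dup47_257812 (0, 18 and 16) and LTR5B_dup17_3627126 (10, 4 and 16). The reverse cases held all their reads in 1 library at LTR5_Hs_dup26_4989741, with 22 reads, and at HERVK-int_dup2_5104508 and HERVK-int_dup4_1932897, with 10 each. Many of the 43 loci with no control read likewise held all their U7 ASO reads in 1 library, with up to 20 reads. With so few reads, a locus at 0 in 3 libraries was not shown to be inactive.

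LTR12 and HERV9 elements, which the study's title asks about, were also placed by running number. Of the 347 members, 18 (5.19%) lay within 20 running numbers of a listed LTR12 or HERV9 locus, beside 2.40% of all other listed loci. A raised one lay that close to 2 members (0.576%, beside 0.475%). These 2 were LTR5_3713414 and LTR5_Hs_dup21_3574867, which held 2 reads in all. Neither raised LTR5_Hs copy was among the 18.

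Relatives of HML-2 were counted for comparison. Of the 7 tested names of other class II HERVK internal parts, 0 were raised and 0 lowered, with a median log2 fold change of −0.19. DESeq2 and limma-voom also called 0, and 1 had an unadjusted p under 0.05. HERVK9-int had the highest value, 0.49 (edgeR adjusted p = 0.317). Of the 24 tested names of their terminal repeats, MER9a1 was raised and 0 were lowered, with a median of 0.25. MER9a1 held 9.29 ± 3.96 CPM in the controls and 139 ± 22.3 CPM under the U7 ASO (SD, n = 3 each). Its log2 fold change of 3.91 (edgeR adjusted p = 4.63e-07) was larger than that of any HML-2 name. Of the 44 tested loci of these terminal repeats, edgeR called 1 raised, a MER9a1 copy, and 0 lowered. Over all tested loci 4.49% were raised. The share of the MER9a1 reads held by that copy was not computed. SVA elements, composite retrotransposons whose 3′ part derives from HERVK, had 0 of 6 names called by edgeR, DESeq2 or limma-voom, 1 with an unadjusted p under 0.05, and a median of 0.26. At the level of loci, 4 of 69 tested SVA loci were raised and 0 lowered with edgeR, against 5 and 1 with DESeq2 and 4 and 0 with limma-voom. SVA_D, the SVA name with the most reads, held 754 ± 104 CPM in the controls and 1118 ± 172 CPM under the U7 ASO (SD, n = 3 each, log2 fold change 0.57, edgeR adjusted p = 0.117). The median over the 5 HML-2 names was 0.30, and that over all tested names was −0.01.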

How the data were processed

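RNA was measured in 6 HEK293T libraries, grouped and numbered by their titles. The authors deposited raw read counts per repeat locus. The submitters' processing notes name STAR 2.5.3a, featureCounts 1.5.0-p1 of Subread, FastQC 0.11.5 and the GRCh38 build. Not given in the sources used here are the strand setting, the repeat annotation, and how multi-mapped reads and read pairs were counted. Near-identical HML-2 copies can share reads, so values of single loci are less certain than sums over a name. Reads on opposite strands of a repeat are not separated.

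Counts were tested per locus and summed per repeat name with edgeR 4.0.16 (R 4.3.3; quasi-likelihood, TMM, filterByExpr with a minimum count of 10 and total of 15), each fit over all features with Benjamini-Hochberg adjustment and a threshold of 0.05. Between 68.4% and 79.3% of a library's reads lay in tested loci. CPM uses the library sizes and TMM factors of the name fit, except for the overlap of groups at single loci, which uses those of the locus fit. Standard errors come from the fold change and F statistic. No sum over members was tested. Alternatives used DESeq2 1.42.0, limma-voom (limma 3.58.1), other scalings and filters, a replicate block and left-out libraries or loci. The code was tested on simulated counts. Libraries of a group differed by more than sampling noise. Rarefied locus numbers are exact hypergeometric expectations, and floors and equal-read values cover counting error only. Both treat reads as independent, though most counts above 0 were even numbers.

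The members and lists were chosen with earlier results of these data known. Named loci were those called, the 3 with the most reads per name, the 10 with the most reads of all members, and the 3 silent loci with the most reads in each direction. Neighbours of the called loci, and the terminal repeats beside the leading HERVK-int locus, were chosen after values were seen.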

Additional observations from a re-analysis of the deposited data

How the results depend on the processing

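The direction of all 5 names held in every alternative run. For LTR5_Hs the log2 fold change ran from 0.84 to 1.11 over left-out libraries, and the call was lost without the leading locus (0.75) and, in an alternative added after the data were seen, without both raised loci (0.60). LTR5A ran from 0.94 to 1.32 over left-out libraries and passed with DESeq2 (1.11), with 10 reads in sum as the filter (1.12) and with the replicate block (1.10, adjusted p = 0.0393). LTR5 could not be fitted without its leading locus, as too few reads remained. The number of raised members was 2 in every alternative except limma-voom (1), and that of lowered members was 0 except without U7 ASO replicate 2 (range over left-out libraries 0 to 1). The ratio of LTR5_Hs to LTR5 kept its sign, with a difference of 0.49 without both leading loci. The ratio of LTR5_Hs to LTR5A changed sign, with differences from −0.31 to 0.16 over left-out libraries.

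Of 210 alternative values of the 14 named loci with a test, 200 kept direction and call. Loci that changed sign over left-out libraries were LTR5B_1540526 (−0.10 to 0.41), LTR5_Hs_dup37_250981 (−0.67 to 1.24) and LTR5A_dup52_2678722 (−0.65 to 1.06), and LTR5A_dup43_2444728 did so with limma-voom (−0.11). The cause of these changes was not tested.

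The labels give no reason to pair equal replicate numbers. Deviations of same-numbered libraries correlated at 0.11, −0.03 and 0.12 over names, and not every library correlated best with its own number. The replicate block moved the called names from 57 to 133 and, beside LTR5A, changed no call of a member. Called names also numbered 89 with DESeq2, 100 with 10 reads in sum, 122 without U7 ASO replicate 1, 38 without U7 ASO replicate 2 and 33 without U7 ASO replicate 3. Called loci went from 713 to 420 with limma-voom, to 313 without U7 ASO replicate 1 and to 388 without U7 ASO replicate 3. Upper-quartile scaling moved the median over all loci from 0.06 to −0.09. Few reads per copy limited the tests to 24 of the 347 loci.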
